A study of Mus musculus and synthetic construct with 30 samples.

Results

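The genes described are the 42 collagen chain genes of the mouse genome other than *Col4a1* and *Col4a2*, taken from the 26759 quantified genes by their symbol (Col, a type number, a, a chain number). They were followed across 16 poly(A) RNA-seq libraries of the *Peril* knockout, in which most of a lincRNA locus was replaced by a *LacZ* reporter. All samples had a mixed C57BL/6J/129S6 background. The libraries were mESC (3 WT wells of clone 4 and 3 KO wells of clone 6, all male), E14.5 kidney of litter 43 (2 male and 1 female WT embryos, 1 male and 2 female KO embryos) and E14.5 ganglionic eminence and olfactory bulb (GE/OB) of litter 46 (2 male WT and 2 female KO embryos). The mESC were grown in 2i on feeder fibroblasts (MEFs), so an mESC library may hold feeder RNA. The 3 wells of a genotype came from 1 clone, and the study's sample sheet gives WT and KO wells different passage numbers, so genotype, clone and passage cannot be told apart in mESC. Genotype and sex cannot be told apart in GE/OB. The mESC wells show the spread within 1 clone per genotype only. The p-values in mESC use a spread estimated over all tissues and genotypes in 1 fit.

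Collagens are secreted or membrane proteins whose 3 chains wind into a helix of repeated glycine triplets. Fibrillar collagens (types I, II, III, V, XI, XXIV and XXVII) build the rope-like fibrils of connective tissue and cartilage, and fibril-associated (FACIT) collagens bind to their surface. Type IV chains form the sheet of basement membranes, type VI chains form beaded filaments around cells, and the multiplexins XV and XVIII are proteoglycans of basement membranes. Type I collagen of most connective tissue holds 2 *Col1a1* chains and 1 *Col1a2* chain, and type VI joins *Col6a1* and *Col6a2* with another chain. Fibroblasts are the main source of types I, III, V and VI in embryonic organs.

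Levels are given in TPM, which the authors corrected for transcript length, and changes as log2 fold changes of TMM-normalised counts from edgeR's quasi-likelihood test, with p-values adjusted by Benjamini-Hochberg over all 17459 genes tested. The threshold for a call was an adjusted p of 0.05, with a minimum change of 2-fold between tissues. Of the 42 genes, 41 passed the filter on low counts, and *Col10a1*, the collagen of hypertrophic cartilage, did not. It had 0 to 3 counts in any group. Counts summed to between 17544707 and 45924887 per library. *LacZ* was at 69.6 to 73.7 TPM in KO mESC and 44.4 to 45.8 TPM in KO GE/OB, and at most 0.47 TPM in WT libraries. In the KO kidneys it was at 0.08 to 0.15 TPM, within or below the 0.09 to 0.47 TPM of the WT kidneys, so it checks the labels of mESC and GE/OB only. The identity markers of each tissue were high in it, with *Pou5f1* at 1375 to 1426 TPM in mESC, *Six2* at 97.2 to 120.2 TPM in kidney and *Dlx1* at 477.3 to 522.1 TPM in GE/OB.

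Promoter windows of 250 bases before the annotated start were available from RefSeq (GRCm38.p6) for 33 of the 42 genes, in 36 windows. Both strands were searched for 3 promoter motifs that do not overlap in sequence. The TATA box motif, TATAAA, was in 5 of the 36 collagen windows (13.9%) and in 12.4% of all 32851 windows of that length. The CCAAT box motif was in 11 of the collagen windows (30.6%) and in 33.8% of all windows. The GC box motif, GGGCGG, was in 21 of the collagen windows (58.3%) and in 32.7% of all windows. The median GC content was 58.4% in the collagen windows and 52.4% in all windows. The windows of *Col11a1* and *Col3a1*, the genes with the largest called changes in KO mESC, and of *Col18a1*, the main collagen of mESC, are shown with matches on either strand in capitals and without bases of annotated exons. *Col11a1* lies on chromosome 3 (chr3:114030290-114030539, plus strand), *Col3a1* on chromosome 1 (chr1:45311288-45311537, plus strand) and *Col18a1* on chromosome 10 (chr10:77166549-77166780, minus strand, the upstream of its 2 windows).
*Col11a1*: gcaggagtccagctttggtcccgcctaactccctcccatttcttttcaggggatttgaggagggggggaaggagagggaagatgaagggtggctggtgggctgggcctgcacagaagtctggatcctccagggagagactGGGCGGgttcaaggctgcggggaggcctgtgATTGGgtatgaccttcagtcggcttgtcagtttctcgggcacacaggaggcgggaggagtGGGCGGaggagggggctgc
*Col3a1*: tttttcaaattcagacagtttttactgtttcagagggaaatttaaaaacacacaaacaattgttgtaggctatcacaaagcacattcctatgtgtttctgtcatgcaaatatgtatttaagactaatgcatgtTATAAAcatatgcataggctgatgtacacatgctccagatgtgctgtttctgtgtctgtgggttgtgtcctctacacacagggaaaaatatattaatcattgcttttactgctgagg
*Col18a1*: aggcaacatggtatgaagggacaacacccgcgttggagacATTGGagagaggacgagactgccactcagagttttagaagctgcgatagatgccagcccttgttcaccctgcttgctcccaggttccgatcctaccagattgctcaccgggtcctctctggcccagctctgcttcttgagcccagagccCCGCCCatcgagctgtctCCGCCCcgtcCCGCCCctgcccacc
The *Col11a1* window had 62.4% GC, with 2 GC box motifs and, on the opposite strand, 1 CCAAT box motif. The *Col3a1* window had 35.2% GC and 1 TATA box motif, and neither of the other motifs. The *Col18a1* window shown held 3 GC box motifs and 1 CCAAT box motif, all on the opposite strand, and no TATA box motif. Its other window, with 57.6% GC, held none of the 3 motifs. Which of the 2 starts mESC use was not tested.

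*Col4a5* and *Col4a6* are neighbours on the X chromosome, transcribed away from each other from starts 1308 bases apart in GENCODE vM21. Their windows are shown because both lie between the 2 starts and the chains had similar ratios in 2 tissues: chrX:141475169-141475384 on the plus strand for *Col4a5*, and chrX:141474077-141474326 on the minus strand for *Col4a6*.
*Col4a5*: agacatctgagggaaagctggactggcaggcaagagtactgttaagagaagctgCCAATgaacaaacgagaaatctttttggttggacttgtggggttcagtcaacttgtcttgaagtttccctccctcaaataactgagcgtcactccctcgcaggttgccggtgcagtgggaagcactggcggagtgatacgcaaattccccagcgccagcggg
*Col4a6*: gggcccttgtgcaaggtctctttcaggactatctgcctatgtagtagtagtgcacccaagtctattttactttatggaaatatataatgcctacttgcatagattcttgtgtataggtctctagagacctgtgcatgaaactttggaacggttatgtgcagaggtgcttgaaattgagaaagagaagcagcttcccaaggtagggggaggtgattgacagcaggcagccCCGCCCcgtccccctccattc
The CCAAT box motif was in the *Col4a5* window, and the GC box motif, on the opposite strand, in that of *Col4a6*. Another such pair, *Col4a3* and *Col4a4* on chromosome 1, has starts 71 bases apart.

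Summed over the 42 genes, collagen RNA came to 82.5 to 85.2 TPM in WT and 77.9 to 92.3 TPM in KO mESC, to 1191 to 1919 TPM in WT and 1357 to 1427 TPM in KO kidney, and to 155.5 to 161.1 TPM in WT and 174.5 to 178.9 TPM in KO GE/OB. The mean was 0.00838% ± 0.000135 of TPM in WT mESC (SD, n = 3), 0.149% ± 0.0380 in WT kidney (SD, n = 3) and 0.0158% ± 0.000390 in WT GE/OB (SD, n = 2). Every kidney library thus lay above every library of the other tissues. The highest sum belonged to kidney WT 8, which was the highest of the 6 kidneys for 14 of the 19 collagens with a kidney mean of at least 10 TPM. Without it the WT kidneys averaged 1278 TPM. In whole organs, fewer cells of a type and less RNA per cell cannot be told apart.

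**Figure D1:**
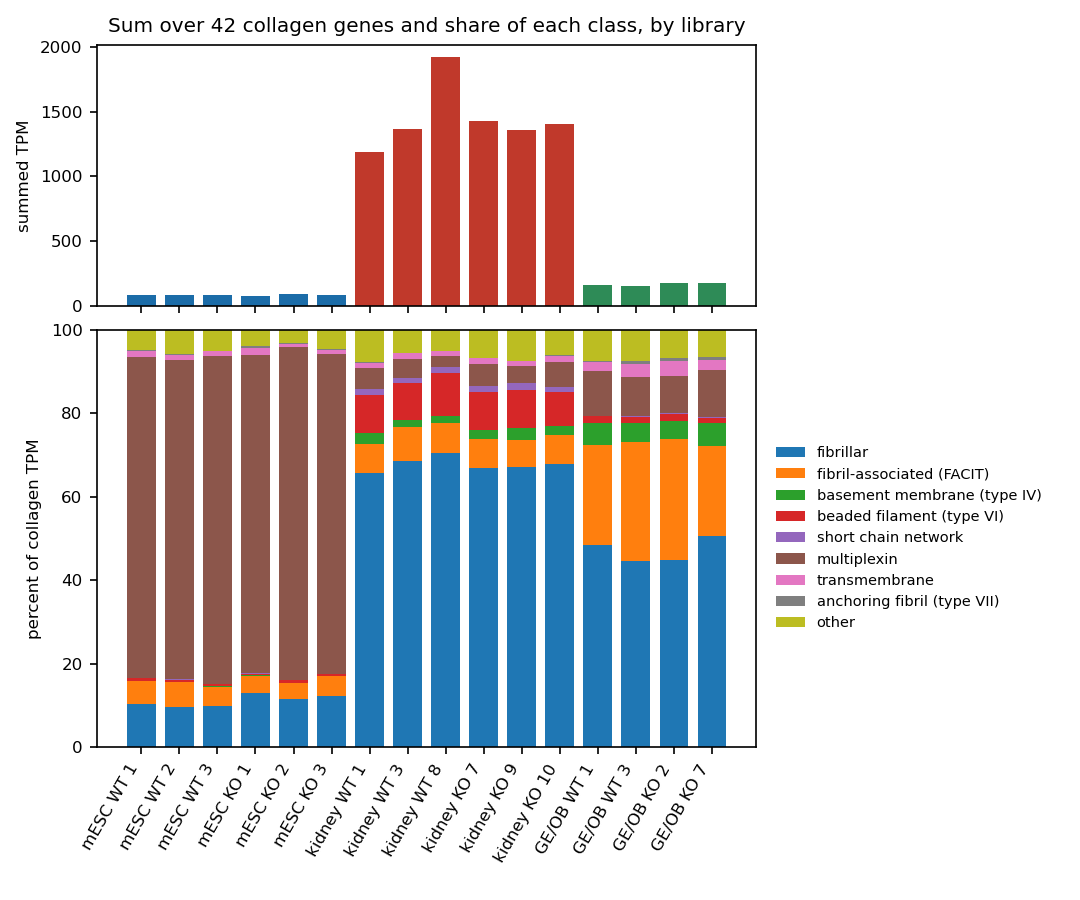
Summed TPM of the 42 collagen genes (top) and the percent of that sum in each structural class (bottom), for each of the 16 libraries. Multiplexins, nearly all of it *Col18a1*, made up 76.3 to 79.8% in mESC, and fibrillar chains 65.7 to 70.3% in kidney and 44.5 to 50.6% in GE/OB.

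The class make-up differed between the tissues more than between libraries of a tissue, as the plot of class shares shows. In mESC the multiplexins made up 76.3 to 79.8% of collagen TPM, fibrillar chains 9.67 to 12.9% and FACIT chains 3.83 to 5.83%. In kidney fibrillar chains took 65.7 to 70.3%, type VI 8.18 to 10.4% and FACIT chains 6.51 to 8.26%. In GE/OB fibrillar chains took 44.5 to 50.6%, FACIT chains 21.5 to 29.0% and multiplexins 8.87 to 11.5%. By gene, 1 collagen had a mean of at least 10 TPM over the mESC libraries, against 19 in kidney and 6 in GE/OB. A mean under 1 TPM was found for 35 collagens in mESC, 10 in kidney and 20 in GE/OB.

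**Figure D2:**
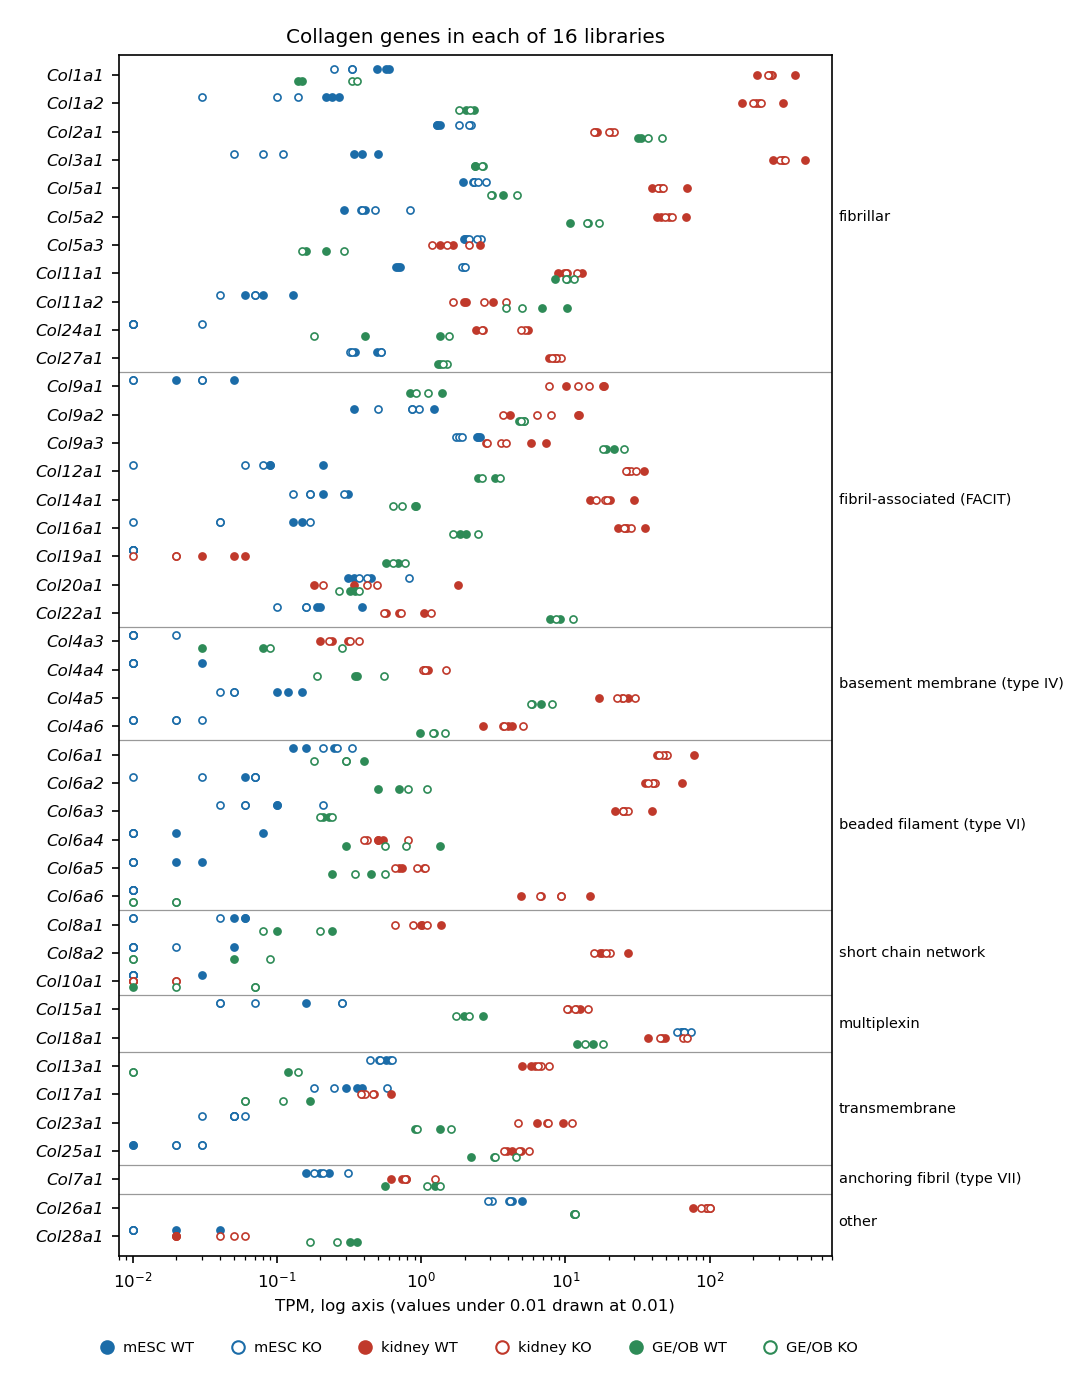
TPM on a log axis of the 42 collagen genes, 1 point per library, filled for WT and open for KO, coloured by tissue and ordered by structural class. Kidney points lie right of mESC points for most genes. *Col18a1* is the exception among abundant chains, with mESC at 59.4 to 73.6 TPM and kidney at 37.3 to 69.3 TPM.

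*Col18a1*, whose C-terminal fragment is endostatin, was the main collagen of mESC. It was at 63.3, 64.2 and 66.6 TPM in WT and 59.4, 73.6 and 66.9 TPM in KO wells. It was at 37.3 to 69.3 TPM in kidney and 12.03 to 18.3 TPM in GE/OB. The other multiplexin, *Col15a1*, was at 0.04 to 0.28 TPM in mESC, 10.2 to 14.4 TPM in kidney and 1.73 to 2.66 TPM in GE/OB. The 2 multiplexins thus differed widely in mESC and less in kidney. Next in mESC came *Col26a1*, an emilin-domain collagen, at 2.92 to 4.99 TPM, *Col5a1* at 1.94 to 2.80 TPM, *Col5a3* at 1.99 to 2.60 TPM and *Col9a3* at 1.75 to 2.55 TPM. *Col5a3* was at 1.19 to 2.55 TPM in kidney, a range that overlaps mESC, while *Col5a2*, its partner in type V, was at 0.29 to 0.83 TPM in mESC and 43.01 to 68.4 TPM in kidney.

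Kidney collagen was led by the fibroblast chains. *Col3a1*, the type III chain of pliable connective tissue, was at 274.7, 319.9 and 455.3 TPM in WT and 319.8, 306.3 and 334.2 TPM in KO kidneys. *Col1a1* was at 214.1, 268.6 and 392.04 TPM in WT and 264.1, 257.2 and 253.4 TPM in KO kidneys. *Col1a2* was at 168.2, 210.1 and 319.9 TPM in WT and 218.9, 198.5 and 227.1 TPM in KO kidneys. For each of these the KO values lay inside the WT range, whose ends were WT 1 and WT 8. *Col26a1* was at 76.7 to 101.3 TPM, *Col5a2* at 43.01 to 68.4 TPM and *Col5a1* at 39.6 to 69.5 TPM. The type VI chains *Col6a1*, *Col6a2* and *Col6a3* were at 43.1 to 78.4, 35.6 to 64.6 and 22.1 to 39.7 TPM. *Col6a6*, an alternative to *Col6a3* in type VI, was at 4.94 to 14.8 TPM, while *Col6a4* and *Col6a5* reached 0.81 and 1.07 TPM.

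The FACIT chains *Col12a1* (26.4 to 34.8 TPM), *Col16a1* (23.2 to 35.4 TPM) and *Col14a1* (14.8 to 29.8 TPM) were also abundant in kidney. Types XII and XIV sit on type I fibrils. *Col8a2*, a short chain network collagen, was at 15.8 to 27.2 TPM, against 0.66 to 1.36 TPM for its partner *Col8a1*. Among type IV chains *Col4a5* was at 17.1 to 30.2 TPM and *Col4a6* at 2.66 to 5.09 TPM. *Col4a3* and *Col4a4*, which join *Col4a5* in the mature glomerular basement membrane and are mutated in Alport syndrome, were at 0.20 to 0.37 and 1.03 to 1.48 TPM in these E14.5 kidneys. *Wt1*, a gene of podocytes and of their progenitors, was at 89.9 to 109.5 TPM in the same libraries.

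GE/OB had a different leading set. *Col2a1*, the main fibrillar collagen of cartilage, was at 33.2 and 32.0 TPM in WT and 37.4 and 46.9 TPM in KO. *Col9a3*, a FACIT chain that coats type II fibrils in cartilage, was at 19.0 and 21.7 TPM in WT and 25.3 and 18.1 TPM in KO. *Col11a1*, which seeds type II fibrils, was at 8.50 to 11.4 TPM and *Col11a2* at 3.89 to 10.3 TPM. Defining cartilage genes were at or near 0, with *Acan* at 0.01 to 0.08 TPM and *Matn1* at 0, while *Sox9*, which neural progenitors also express, was at 29.8 to 41.4 TPM. *Col5a2* was at 10.7 to 17.1 TPM, *Col26a1* at 11.4 to 11.7 TPM and *Col22a1*, known from myotendinous junctions, at 7.78 to 11.2 TPM. Fibroblast chains were low, with *Col3a1* at 2.36 to 2.68 TPM, *Col1a2* at 1.83 to 2.31 TPM and *Col1a1* at 0.14 to 0.36 TPM. The 10 meningeal fibroblast markers summed to 4.19 to 6.48 TPM. The highest were *Ptgds* at 1.63 to 2.83 TPM and *Foxc1* at 1.06 to 1.26 TPM, near the level of *Col1a2* and *Col3a1*, while *Dcn* and *Lum* were at 0.06 to 0.32 and 0 to 0.11 TPM. Their part in these collagen levels was not tested.

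Several pairs of partner chains had narrow ratios in kidney and other ratios in GE/OB. *Col1a1* over *Col1a2* was 1.12 to 1.30 in the 6 kidneys and 0.0606 to 0.197 in the 4 GE/OB libraries. *Col6a1* over *Col6a2* was 1.18 to 1.24 in kidney and 0.222 to 0.80 in GE/OB, where both genes were under 1.1 TPM. *Col5a1* over *Col5a2* was 0.803 to 1.03 in kidney and 0.218 to 0.344 in GE/OB. *Col9a1* over *Col9a3* was 2.52 to 3.76 in kidney and 0.0442 to 0.0646 in GE/OB, and *Col9a2* over *Col9a3* was 1.30 to 2.13 and 0.202 to 0.271. *Col8a2* over *Col8a1* was 17.1 to 24.0 in kidney and 0 to 0.45 in GE/OB, where neither gene was above 0.24 TPM. In contrast *Col4a5* over *Col4a6*, the neighbours on X, was 5.92 to 6.78 in kidney and 4.79 to 5.97 in GE/OB. Kidney and GE/OB ranges also overlapped for *Col6a1* over *Col6a3* (1.74 to 2.00 and 0.90 to 1.90). The same held for *Col11a1* over *Col11a2* (2.66 to 6.37 and 1.00 to 2.94) and *Col4a5* over *Col4a4* (15.25 to 25.3 and 10.5 to 42.2). *Col4a4* over *Col4a3*, the other pair with adjacent starts, was 3.34 to 5.2 in kidney and 1.96 to 11.7 in GE/OB. These are ratios of RNA per length, given without a test.

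**Figure D3:**
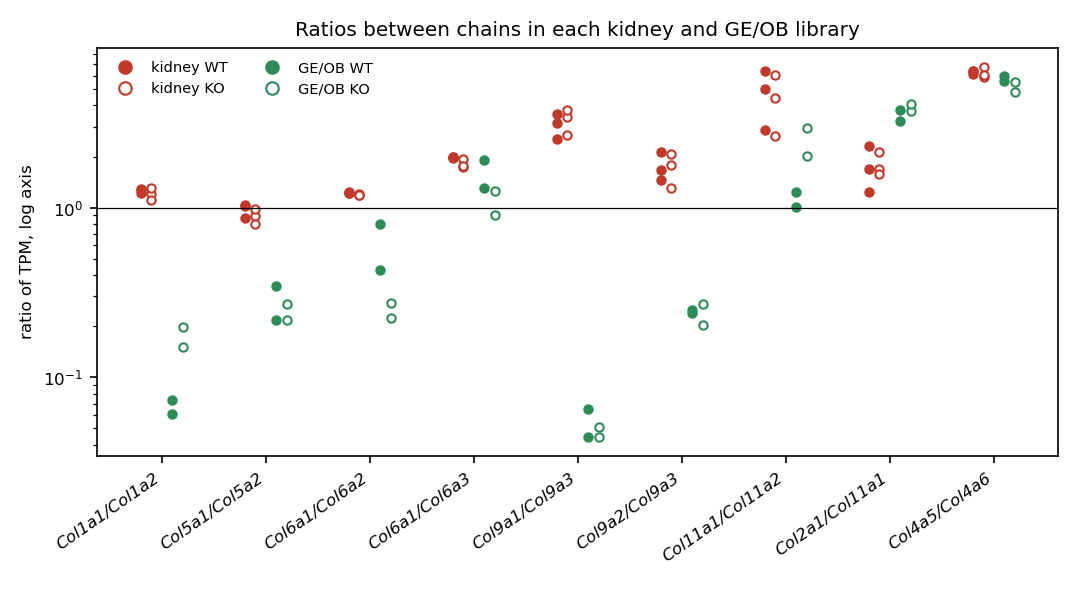
Ratio of TPM between collagen chains on a log axis, 1 point per kidney (red) or GE/OB (green) library, filled for WT and open for KO. *Col1a1*/*Col1a2* sits at 1.12 to 1.30 in kidney and 0.0606 to 0.197 in GE/OB, while *Col4a5*/*Col4a6* sits at 4.79 to 6.78 in both.

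The levels of the WT groups were then tested between tissues. In WT kidney against WT mESC, 35 of 41 collagens were higher (30.8% of all tested genes were) and 0 were lower by edgeR or DESeq2 (21.9% of all). *Col18a1* was the only one below at an unadjusted p under 0.05, at a log2 difference of -0.61 (adjusted p = 0.000472, edgeR), short of the 2-fold limit. Its KO kidney levels of up to 69.3 TPM overlapped mESC. Among the abundant kidney chains the differences were *Col1a2* (log2 10.01 ± 0.30 SE), *Col3a1* (9.67 ± 0.22 SE), *Col6a2* (9.41 ± 0.32 SE) and *Col1a1* (9.11 ± 0.23 SE). *Col24a1* had 0 counts in the 3 WT mESC libraries and 1019 in the WT kidneys. Against 3 counts over the mESC group this is at least 433-fold higher. Not called were *Col5a3*, *Col17a1*, *Col18a1*, *Col20a1*, *Col22a1* and *Col28a1*. The median over the collagens was a log2 difference of 5.60, against 0.08 over all tested genes.

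In WT GE/OB against WT mESC, 27 collagens were higher (33.0% of all tested genes) and 5 were lower (27.1% of all), with a median of 2.51 against 0.06 over all genes. The 5 lower ones were *Col18a1* (log2 -2.90 ± 0.17 SE), *Col1a1* (-2.50 ± 0.51 SE), *Col5a3* (-4.06 ± 0.40 SE), *Col17a1* (-2.97 ± 0.37 SE) and *Col13a1*, which had 2 counts over the WT GE/OB libraries. *Col1a1* and *Col1a2* went apart, since *Col1a2* was higher in GE/OB (2.18 ± 0.43 SE). *Col22a1* (4.42 ± 0.19 SE) and *Col2a1* (3.73 ± 0.14 SE) were among the higher ones. *Col5a1* (0.00 ± 0.24 SE) and *Col26a1* (0.38 ± 0.19 SE, adjusted p = 0.0732 in edgeR) were not called. The TPM of both was higher in WT GE/OB, with *Col26a1* at 11.6 and 11.4 against 4.04 to 4.99 TPM in WT mESC. *Col5a1* was at 3.11 and 3.68 against 1.94 to 2.31 TPM. On the TPM scale the median of 10976 genes at 1 TPM or more in both groups lay 0.43 higher (log2) in GE/OB. Transcripts assigned to *Col26a1* averaged 1230 and 1377 bases (effective length) in WT GE/OB and 1581 to 1702 bases in WT mESC. *Col19a1*, a FACIT chain, had 0 counts in WT mESC and 58 in WT GE/OB, at least 53.1-fold higher against 3 counts over the group.

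In WT kidney against WT GE/OB, 33 collagens were higher (23.6% of all tested genes) and 4 were lower (21.5% of all), with a median of 3.20 against 0.04 over all genes. *Col1a1* had the largest difference of these (11.61 ± 0.35 SE), with *Col3a1* at 7.85 ± 0.24 SE. Higher in GE/OB were *Col22a1* (-4.05 ± 0.19 SE), *Col28a1* (-3.39 ± 0.53 SE), *Col19a1* (-3.05 ± 0.47 SE) and *Col9a3* (-1.23 ± 0.26 SE), all given as kidney over GE/OB. Without kidney WT 1 the *Col9a3* difference was -0.93, under the 2-fold limit. *Col9a3* has 234 exon bases that overlap *Tcfl5* on the opposite strand, and the library kit does not mark strand. *Col2a1* (0.01 ± 0.12 SE) and *Col11a2* (-0.25 ± 0.20 SE) were not called. The TPM of *Col2a1* was nonetheless higher in GE/OB (32.6 TPM in WT) than in kidney (17.8 TPM). On the TPM scale the median of 12093 genes at 1 TPM or more in both groups lay 0.57 lower (log2) in kidney, so TPM and fitted differences are offset between these tissues. *Col11a2* was further apart on the 2 scales, at 10.25 and 6.91 TPM in WT GE/OB and 1.97 to 3.12 TPM in WT kidney. Its effective length was 1877 and 3046 bases in WT GE/OB and 4252 to 5250 bases in WT kidney, and the fitted difference does not correct for length. Of the 37 collagens called here, *Col6a4* alone had the other sign on the TPM scale. *Col20a1* was called through kidney WT 3 (1.80 TPM, the other kidneys 0.18 to 0.49), and without it the difference was 0.08. Its call was also lost without either WT GE/OB library (edgeR adjusted p = 0.154 and 0.123).

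In KO against WT mESC, 4 collagens were called: *Col11a1* and *Col2a1* were higher and *Col3a1* and *Col26a1* were lower. That is 2 of 41 in each direction, where 2.27% of all tested genes were higher and 4.59% lower. A further 5, all with a change below 0, had an unadjusted p under 0.05 only. That makes 9 of 41 collagens at an unadjusted p under 0.05, near the 21.2% of all tested genes. Over the 41 genes the median log2 fold change was -0.17, against -0.03 for all genes. The main collagen, *Col18a1*, differed by -0.03 on the log2 scale.

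*Col11a1* was at 0.67, 0.71 and 0.69 TPM in WT and 1.97, 1.92 and 2.01 TPM in KO wells. The groups did not overlap and each was tight. The log2 fold change was 1.47 ± 0.16 SE (adjusted p = 3.09e-05, edgeR), a 2.78-fold rise, on 345 counts over the WT wells. *Col2a1*, whose product forms mixed fibrils with type XI, was at 1.29, 1.35 and 1.29 TPM in WT and 1.83, 2.22 and 2.16 TPM in KO wells. Its groups did not overlap either, and the change was 0.55 ± 0.15 SE (adjusted p = 0.0413, edgeR). This call was lost with a replicate block (adjusted p = 0.0701, edgeR) and without any 1 of the 6 wells (0.0764 to 0.135).

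*Col3a1* was at 0.39, 0.34 and 0.50 TPM in WT and 0.11, 0.05 and 0.08 TPM in KO wells. The WT libraries held 42, 39 and 73 counts of it and the KO libraries 13, 3 and 8. The change was -2.32 ± 0.42 SE (adjusted p = 0.00275, edgeR), 5.01-fold lower in KO, and the groups did not overlap. *Col26a1* was at 4.04, 4.99 and 4.25 TPM in WT and 3.11, 2.92 and 4.15 TPM in KO wells, where KO 3 lay inside the WT range. The change in counts was -0.78 ± 0.19 SE (adjusted p = 0.019, edgeR). Its effective length, the average length of the transcripts assigned to it, was 1702, 1581 and 1644 bases in WT and 1340, 1282 and 1242 bases in KO. With these lengths as offsets in DESeq2 the change was -0.42 (adjusted p = 0.0899), and the call was also lost without WT 2, WT 3, KO 1 or KO 2 (edgeR adjusted p 0.0519 to 0.0875).

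**Figure D4:**
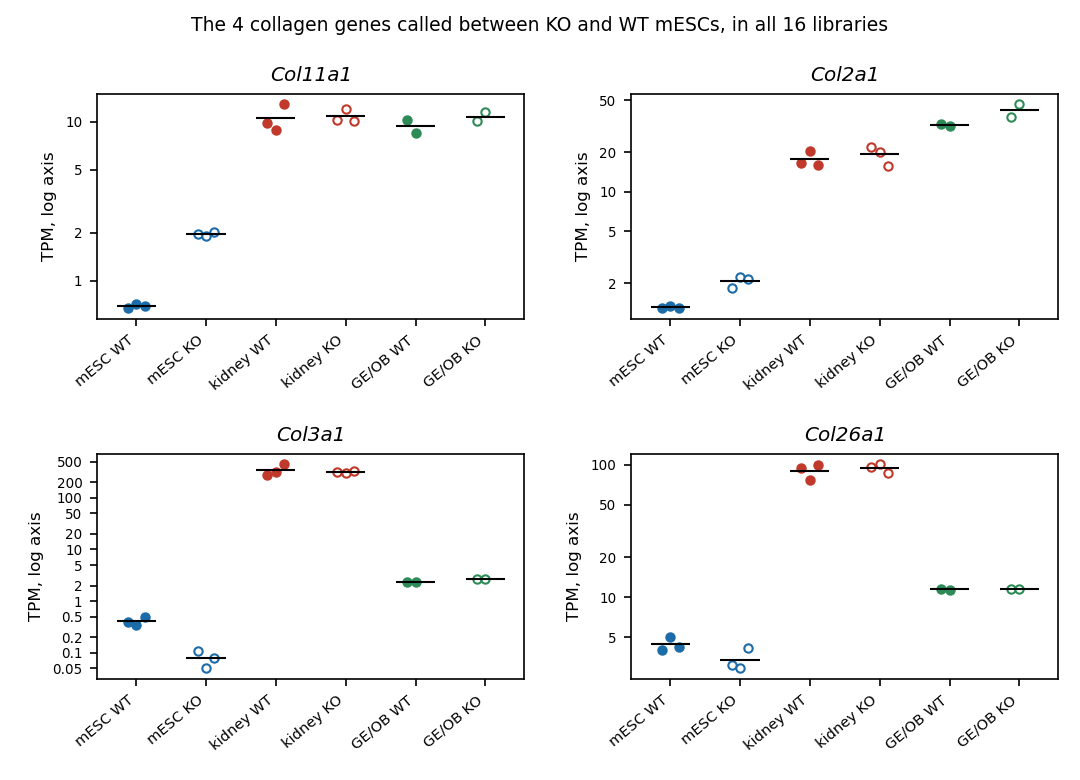
TPM on log axes of *Col11a1*, *Col2a1*, *Col3a1* and *Col26a1* in all 16 libraries, filled for WT and open for KO, with a line at each group mean. The 3 KO mESC wells lie above the WT wells for *Col11a1* (1.92 to 2.01 against 0.67 to 0.71 TPM) and below them for *Col3a1* (0.05 to 0.11 against 0.34 to 0.50 TPM).

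The type I chains, the partners of *Col3a1* in fibroblast fibrils, lay lower in KO mESC without passing the test. *Col1a1* was at 0.60, 0.49 and 0.57 TPM in WT and 0.33, 0.33 and 0.25 TPM in KO wells (log2 -0.83 ± 0.33 SE, adjusted p = 0.147 in edgeR). *Col1a2* was at 0.27, 0.22 and 0.24 TPM in WT and 0.14, 0.10 and 0.03 TPM in KO wells (-1.64 ± 0.69 SE, adjusted p = 0.176 in edgeR). Neither gene's groups overlapped. Both passed with the mESC libraries fitted on their own (adjusted p = 0.00577 and 0.00945, edgeR). By contrast *Col5a1* (0.17 in log2) and *Col6a1* (0.45) had KO means above WT, at 2.53 against 2.18 and 0.267 against 0.18 TPM. Neither was called. The other type V chains went apart, with *Col5a3* at 0.17 and *Col5a2* at -0.09. *Col6a2* (-1.12) and *Col6a3* (-0.22), which join *Col6a1*, had fitted changes below 0, also not called.

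The feeder cells are fibroblasts, so fibroblast genes are given beside these values. Of 21 fibroblast and feeder markers without collagens, 2 were lower in KO mESC (4.59% of all tested genes were), *Thbs1* (-1.87, adjusted p = 0.000115) and *Lox* (-2.03, adjusted p = 0.0397; both edgeR). DESeq2 called 3 lower, and 6 were lower at an unadjusted p under 0.05 in edgeR. That threshold was passed by 21.2% of all tested genes in either direction. By edgeR and DESeq2 0 were higher, with 0 at an unadjusted p under 0.05. The median was -0.56. Summed, the 21 markers were at 439.6 to 455.5 TPM in WT and 438.5 to 531.8 TPM in KO wells, most of it *Fn1* (396.2 to 486.2 TPM). Without *Fn1* and *Fbln1*, a choice made after their values were seen, the sums were 16.9 to 19.0 TPM in WT and 11.7 to 13.9 TPM in KO wells. The 2 genes left out were not lower in KO, with *Fn1* at 396.2 to 408.8 TPM in WT and 398.9 to 486.2 TPM in KO. *Fbln1* was at 26.5 to 27.6 TPM in WT and 27.5 to 31.7 TPM in KO. The most abundant of the rest was *Fbln2*, not called, at 9.65 to 11.3 TPM in WT and 7.24 to 7.81 TPM in KO. *Twist2* and *S100a4* were at 0 in all 6 wells, and *Dcn*, *Lum* and *Postn* at 0.19 TPM or less. The part of feeder RNA in the lower *Col3a1* was not tested.

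In KO against WT kidney, edgeR called 0 of 41 collagens in either direction, as did DESeq2. Over all tested genes 0.0344% were higher and 0.189% lower. At an unadjusted p under 0.05 there were 7 collagens, 17.1% of 41 against 7.6% of all genes. *Col18a1* was the 1 above WT, at 47.0, 49.3 and 37.3 TPM in WT and 65.2, 45.3 and 69.3 TPM in KO kidneys (log2 0.35 ± 0.13 SE, adjusted p = 0.538 in edgeR). KO 9 lay inside the WT range. The 6 below WT were *Col6a1*, *Col9a1*, *Col9a2*, *Col9a3*, *Col19a1* and *Col20a1*. *Col19a1* rested on 14 counts in WT and 3 in KO kidneys.

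The 3 type IX chains varied together between embryos. *Col9a1* was at 10.0, 18.2 and 18.4 TPM in WT and 12.3, 7.67 and 14.6 TPM in KO kidneys. *Col9a2* was at 4.11, 12.3 and 12.2 TPM in WT and 6.37, 3.71 and 7.99 TPM in KO. *Col9a3* was at 2.81, 5.79 and 7.31 TPM in WT and 3.58, 2.85 and 3.88 TPM in KO. WT 3 and WT 8 were high and WT 1 and KO 9 low for all of them, so the genotypes overlapped. Fitted changes were -0.52 ± 0.23, -0.74 ± 0.34 and -0.74 ± 0.25 (SE), with edgeR adjusted p of 0.633, 0.644 and 0.45. Without kidney WT 1, *Col9a3* alone was called, at -1.04 (adjusted p = 0.0297, edgeR). *Lum*, a fibroblast marker named after its values were seen, followed the same order at its ends. It was at 27.3, 61.2 and 61.4 TPM in WT and 32.4, 18.4 and 39.2 TPM in KO kidneys. *Dcn* of the same list also did, at 43.8, 71.9 and 91.6 TPM in WT and 62.2, 37.8 and 61.3 TPM in KO. Other markers of that list did not, since *Pdgfra*, *Twist1* and *Postn* were lowest in KO 10. The cartilage markers without collagens summed to 15.3 to 17 TPM in WT and 16.8 to 20.4 TPM in KO. Most of it was *Sox9* (7.78 to 9.70 TPM) and *Hapln1* (5.54 to 9.27 TPM). No other marker of that list was above 1.24 TPM, and *Acan* was at 0.08 TPM or less, so the sum is no measure of cartilage. Fibroblast markers summed to 680.4 to 991.1 TPM in WT and 718.1 to 735.9 TPM in KO, and 19 of 21 had a fitted change below 0, none called by edgeR or DESeq2 and 5 at an unadjusted p under 0.05. Of 12 skeletal muscle markers tested, 6 were lower in KO kidney (0.189% of all tested genes). Muscle markers summed to 50.6 to 70.9 TPM in WT and 22.1 to 28.8 TPM in KO kidneys. The part of these cell types in the type IX values was not tested.

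In KO against WT GE/OB, edgeR and DESeq2 also called 0 of 41 collagens, where 0.0401% of all genes were higher and 0.0229% lower. *Col2a1* alone had an unadjusted p under 0.05 (log2 0.34 ± 0.13 SE, adjusted p = 1 in edgeR), with both KO values above both WT values. Of the 41 fitted changes 32 were above 0, and the median was 0.15, against 0.02 for all genes. *Col1a1*, at 8 and 8 counts in WT and 31 and 21 in KO, had a change of 1.23, not called. The GE/OB groups hold 2 embryos each, which limits what the test can show.

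**Figure D5:**
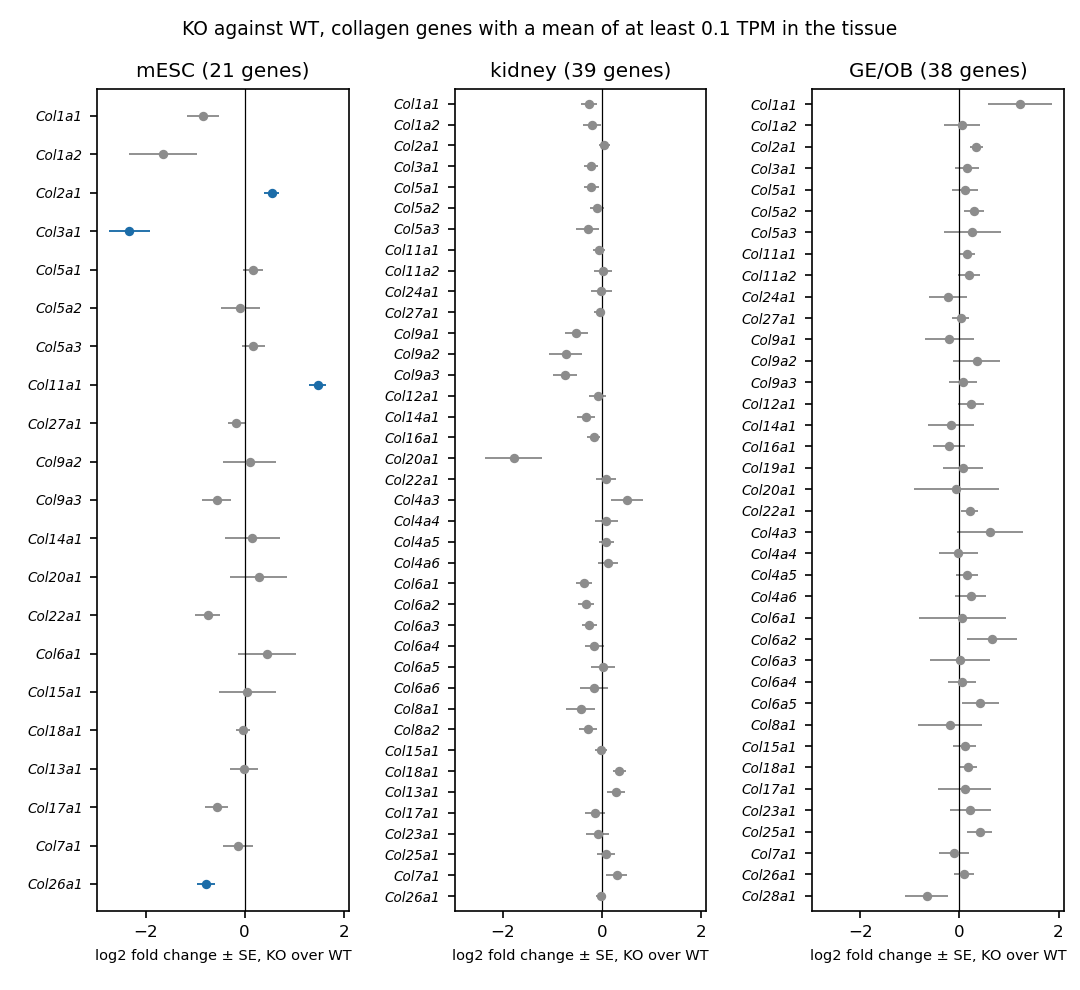
Log2 fold change of KO over WT with its SE from edgeR, for collagens with a mean of at least 0.1 TPM in the tissue, coloured where called at an adjusted p under 0.05 and grey otherwise. The 4 coloured points are *Col11a1* (1.47), *Col2a1* (0.55), *Col3a1* (-2.32) and *Col26a1* (-0.78) in mESC, and kidney and GE/OB have none.

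The KO changes were compared between tissues with interaction contrasts of the same fit. Between mESC and kidney 2 of 41 collagens were called (2.24% of all tested genes), *Col11a1* (a difference of 1.53, adjusted p = 0.000498) and *Col3a1* (-2.10, adjusted p = 0.0204; both edgeR). Between mESC and GE/OB the same 2 genes were called (1.08% of all genes), at 1.31 (adjusted p = 0.00742) and -2.48 (adjusted p = 0.0215; both edgeR). Both contrasts use the same mESC wells. The *Col3a1* difference from kidney was not called without mESC WT 3, KO 2 or KO 3 (edgeR adjusted p 0.068 to 0.0863). That from GE/OB was not called without any of these wells or either WT GE/OB library (0.0671 to 0.075). The *Col11a1* difference from GE/OB was lost without GE/OB WT 1 (adjusted p = 0.0528, edgeR). In kidney and GE/OB, where *Col11a1* was at 8.50 to 12.9 TPM, its KO and WT values overlapped, and its changes were -0.05 and 0.16. Between kidney and GE/OB 0 collagens were called (0.0344% of all genes), also by DESeq2, with 4 at an unadjusted p under 0.05.

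The genes that act on collagen chains were taken in 5 lists. Of 20 genes of chain folding and modification, *Fkbp10*, a prolyl isomerase that aids procollagen folding, was lower in KO mESC (4.06 against 2.97 TPM, log2 -0.53, adjusted p = 0.016 in edgeR). Among all tested genes 4.59% were lower there. By edgeR 0 of the 20 were higher (2.27% of all tested genes), with 4 at an unadjusted p under 0.05, and by DESeq2 1. *Serpinh1*, the collagen chaperone HSP47, was at 45.2 to 57.6 TPM in mESC, 556.0 to 703.1 TPM in kidney and 85.2 to 105.7 TPM in GE/OB. Between WT kidney and WT GE/OB 15 of the 20 were higher in kidney (23.6% of all tested genes). Between WT kidney and WT mESC 11 were higher (30.8% of all) and 1 was lower (21.9% of all). *P4hb*, a subunit of prolyl 4-hydroxylase, was at 332.7 to 396.0 TPM in mESC and 255.6 to 326.7 TPM in kidney.

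Of 13 genes of propeptide removal and cross-linking, *Loxl4* was higher in KO mESC (0.48 against 1.43 TPM, 1.49, adjusted p = 0.0031) and *Lox* was lower (0.287 against 0.07 TPM, -2.03, adjusted p = 0.0397; both edgeR). Both encode lysyl oxidases, which cross-link fibrils. *Pcolce*, an enhancer of procollagen C-proteinase, was at 152.2 to 189.6 TPM in mESC and 47.3 to 67.2 TPM in kidney, the opposite order to the fibrillar chains it acts on. Of 9 collagen receptors tested, *Itgb1* was higher in KO mESC (57.4 against 73.1 TPM, 0.28), and *Ddr2* (1.32 against 0.557 TPM, -1.29), *Itga1* (0.64 against 0.33 TPM, -1.01) and *Ddr1* (14.0 against 11.0 TPM, -0.44) were lower, with edgeR adjusted p of at most 0.023. No other receptor had an unadjusted p under 0.05, and the shares of all tested genes are those given above. *Ddr1* and *Ddr2* are collagen-binding receptor kinases, and *Itga1* pairs with *Itgb1*. *Ddr1* was highest in GE/OB, at 113.2 to 131.7 TPM.

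Of 10 genes of collagen breakdown tested, *Timp3*, a metalloprotease inhibitor, was lower in KO mESC (1.94 against 1.29 TPM, -0.66, adjusted p = 0.035 in edgeR). Among all tested genes 4.59% were lower there. Of 13 fibril-binding proteoglycans and glycoproteins 0 were called in KO mESC by edgeR and 1 by DESeq2, with 1 at an unadjusted p under 0.05. All 13 were higher in WT kidney than in WT GE/OB (23.6% of all tested genes). In KO kidney 0 genes of these 5 lists were called by edgeR or DESeq2, with 6 at an unadjusted p under 0.05, and in KO GE/OB also 0, with 1.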

How the data were processed

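Poly(A)+ paired-end RNA-seq libraries (16) were used. The authors aligned reads to mm10 with bowtie2 and deposited RSEM expected counts, TPM and effective lengths per gene, with no pooling of replicates. The kit does not mark strand. Versions are not given in the sources used here. Expected counts were rounded and tested with edgeR 4.0.16 (R 4.3.3, TMM, filterByExpr by group, quasi-likelihood, Benjamini-Hochberg), with 1 coefficient per tissue and genotype in 1 fit, and the scripts were tested on simulated data. DESeq2 1.42.0 was an alternative. SE is the log2 fold change over the square root of F. Depth was 17544707 to 45924887 expected counts per library. Positions came from GENCODE vM21 and promoters from RefSeq (GRCm38.p6). Deviations of mESC wells with the same number in both clones correlated weakly (r = 0.107, 0.165 and 0.129 over 11619 genes). Wells with unlike numbers had r of -0.158 to 0.055. Each deviation is from the mean of the wells of its clone, so these values depend on each other. The wells with the same number were treated as paired in the block alternative only.

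The members and gene lists were chosen with earlier results of these data known. Named collagens were those called in a KO contrast, at 10 TPM or more in a tissue, leading their class, or chains of a heterotrimer. Other collagens, and *Serpinh1*, *P4hb*, *Pcolce*, *Wt1* and *Lum*, were named after their values were seen, as were the genes called between tissues. The reporter assay counts were not used here.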

Additional observations from a re-analysis of the deposited data

Results flagged for a closer look

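The KO effect of 2 collagens differed between mESC and the embryonic tissues by a test of the difference itself in edgeR. For *Col11a1* the log2 effect was 1.47 in mESC, -0.05 in kidney and 0.16 in GE/OB, so mESC exceeded kidney by 1.53 (adjusted p = 0.000498) and GE/OB by 1.31 (adjusted p = 0.00742). All 3 KO wells lay above all 3 WT wells. For *Col3a1* the effect was -2.32 in mESC, -0.22 in kidney and 0.15 in GE/OB, a difference of -2.10 from kidney (adjusted p = 0.0204) and of -2.48 from GE/OB (adjusted p = 0.0215), with all 3 KO wells below all 3 WT wells. The wells of a genotype come from 1 clone, so clone, passage and genotype cannot be told apart in these differences.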

How the results depend on the processing

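No value changed direction under any alternative run. For collagens higher in KO mESC the count was 1 rather than 2 at an adjusted p under 0.01, with sex as a covariate, with the replicate block and without any 1 of the 6 mESC wells. The collagen lost was *Col2a1* each time, and the replicate block changed no other call. The count lower in KO mESC was 1 at an adjusted p under 0.01, 5 with DESeq2, 5 with DESeq2 and length offsets, 7 with mESC fitted on its own, and 1 to 2 without single libraries. In KO kidney the count lower was 0 to 1 without single libraries. Without a minimum fold, 1 collagen (*Col18a1*) was higher in WT mESC than in WT kidney. The difference of KO effects between mESC and kidney gave 1 collagen at an adjusted p under 0.01 and 1 to 4 without single libraries, with 4 without kidney WT 8. That between mESC and GE/OB gave 1 at an adjusted p under 0.01, 4 with DESeq2, 4 with DESeq2 and length offsets, and 0 to 2 without single libraries, with 0 without GE/OB WT 1. The causes were not tested. As a share of counts rather than TPM, collagens took 0.0263% in WT mESC, 0.6075% in WT kidney and 0.0361% in WT GE/OB. Leave-one-out refits of the interaction contrasts were added after seeing the data. Over all settings, 488 single-gene KO and interaction values kept their side of the threshold, 13 newly passed it and 26 lost it, and 9 tissue values lost it against 1376 that did not. In mESC the low counts of *Col3a1* and *Col1a2* limit precision.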

Other observations

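*Col24a1*, a fibrillar collagen, had TPM values that varied within a group while its counts varied less. In kidney it was at 2.39, 5.54 and 2.67 TPM in WT 1, 3 and 8, on 404, 335 and 280 expected counts. The effective lengths given for it in those libraries were 6470, 2893 and 6944 bases. In GE/OB it was at 0.41 and 1.35 TPM in WT 1 and 3 on 29 counts each, with effective lengths of 6952 and 2316 bases. The libraries with the shorter length thus had the higher TPM.

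Outside the collagens, *Kdr*, an endothelial receptor, was higher in KO mESC (0.147 against 0.70 TPM, log2 2.13, adjusted p = 0.000464) and *Cldn5*, an endothelial junction gene, was lower (0.603 against 0.173 TPM, -1.70, adjusted p = 0.0334; both edgeR). These were the 2 of 8 endothelial markers called there, where 2.27% of all tested genes were higher and 4.59% lower. *Podxl*, 1 of 7 podocyte markers and also expressed in stem cells, was lower (22.0 against 14.3 TPM, -0.69, adjusted p = 0.0158 in edgeR). None of the 7 mural cell or 10 meningeal fibroblast markers was called by edgeR or DESeq2 in KO mESC, with 1 and 2 at an unadjusted p under 0.05.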
